A study of Rattus norvegicus with 12 samples.

Results

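Mitochondrial fusion, fission and mitophagy genes were described in rat heart muscle across lean, obese and nicotinamide-treated obese animals. The 9 genes were taken by name from the 17602 genes of the deposited expression table, and all 9 were found once and passed the filter on low values. They are Mfn1 (ENSRNOG00000011057.7), Mfn2 (ENSRNOG00000046424.2) and Opa1 (ENSRNOG00000001717.8), which fuse mitochondria, Dnm1l (ENSRNOG00000001813.8) and Fis1 (ENSRNOG00000001420.8), which act in division, and Pink1 (ENSRNOG00000015385.7), Bnip3 (ENSRNOG00000017243.6), Bnip3l (ENSRNOG00000009820.5) and Fundc1 (ENSRNOG00000003470.6), which mark damaged or surplus mitochondria for removal by autophagy.

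The study behind these samples asked whether oral nicotinamide (NAM), a form of vitamin B3 from which cells make NAD+, changes the heart in a rat model of heart failure with preserved ejection fraction, in which the ventricle fills poorly but ejects normally. RNA of 12 cardiac muscle samples was sequenced, 4 in each of 3 groups. The first group was lean ZSF1 rats, used as controls. The second was obese ZSF1 rats without NAM. The third was obese ZSF1 rats that drank water with 24 mM NAM between 8 and 20 weeks of age. The labels call both obese groups diet-induced, although obese ZSF1 rats are known to carry leptin receptor defects. The lean and obese groups therefore differ in genotype as well as in weight. Age at sampling of the untreated groups and sex are not given in the labels. The labels also do not say that every sample is a separate animal. The p-values therefore set group differences against the spread between these samples, which may be technical.

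Mitochondria in the heart are packed between the myofibrils, and their shape is set by opposing membrane machines. Mitofusins join outer membranes and OPA1 joins inner membranes, while the GTPase DRP1, encoded by Dnm1l, is recruited to the surface and constricts the organelle. Damaged mitochondria are tagged by the kinase PINK1 with the ubiquitin ligase parkin, or are bound directly by receptors such as BNIP3, NIX (Bnip3l) and FUNDC1, which hold a motif that binds LC3 proteins of the autophagosome.

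Values are TPM, a length-corrected share of all transcripts in a sample, so that a gene's TPM falls when others take more of the total. The 13 mitochondrially encoded genes took 66.2 to 70.4% of all TPM in lean, 74.6 to 75.5% in obese and 69.9 to 73.8% in NAM-treated samples. The median log2 change of all 10526 genes tested was -0.20 in obese against lean, 0.25 in NAM-treated against obese and 0.05 in NAM-treated against lean samples. Each comparison is therefore given on 2 scales: as deposited, and rescaled, where a sample's values were divided by its median ratio to the geometric mean of all samples, which brought those medians to 0.00, -0.01 and 0.00. Log2 changes are differences of log2(TPM + 1), which understates changes of low genes. A gene was called changed at an adjusted p under 0.05 in limma. Depth cannot be read from TPM and is unknown.

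In obese hearts the fusion genes Mfn1, Mfn2 and Opa1, the division gene Dnm1l and the kinase gene Pink1 were lower than in lean hearts as deposited. These were 5 of the 9 genes, where 16.5% of all genes were called lower. The falls lay between -0.61 for Mfn1 and -0.38 for Dnm1l on the log2 scale, and the median of the 9 was -0.40. In 7 of the 9 every obese sample was below every lean sample, which held for 23.2% of all genes. For Fundc1, among these 7, the ranges were only just apart, at 15.899 TPM in the highest obese and 15.901 TPM in the lowest lean sample. After rescaling, Mfn1 was the 1 gene of the 9 still called lower, against 0.751% of all genes. Ranges without overlap were then left for Mfn1, Opa1 and Dnm1l on the lower side (5.31% of all genes) and for Bnip3l on the higher side (4.26%). The ranges of Dnm1l were only just apart, at 19.217 TPM in the highest obese and 19.226 TPM in the lowest lean sample. Without the mitochondrially encoded genes in the total, 0 of the 9 were called in limma, with Mfn1 nearest at -0.31 (adjusted p = 0.0840), and 0.342% of all genes were called lower on that scale. In bulk tissue, fewer cells of a type and less RNA per cell cannot be told apart.

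With NAM, Mfn1, Mfn2, Opa1, Dnm1l, Fis1 and Fundc1 were higher than in untreated obese hearts as deposited. These were 6 of the 9 genes, where 28.8% of all genes were called higher. The rises lay between 0.34 for Fis1 and 0.53 for Mfn2, and the median over the 9 genes was 0.40. Ranges did not overlap for 5 of the 9, Fis1 being the exception among the called, against 28.0% of all genes. After rescaling, 0 of the 9 were called in limma, against 0.713% of all genes in either direction. Mfn2 and Opa1 then had an unadjusted limma p under 0.05. They ranked 893 and 994 by p of the 10526 genes, so at least 994 genes passed that limit. The ranges of both also stayed apart, and separate ranges on the higher side held for 4.87% of all genes. Without the mitochondrially encoded genes in the total, Mfn2 alone of the 9 was called, at 0.34 (adjusted p = 0.0458), where 2.58% of all genes were called higher. Both comparisons use the same 4 obese samples, so a gene with low values there is moved in opposite directions in them.

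NAM-treated hearts were also set against lean hearts. On either scale 0 of the 9 genes were called in limma, against 1.83% of all genes as deposited and 2.36% after rescaling. An unadjusted limma p under 0.05 was reached by 2 of the 9 on each scale, Fundc1 and Pink1 as deposited, and Mfn1 and Pink1 after rescaling. Such values were common among all genes. By p, Pink1 ranked 1391 of the 10526 genes as deposited and 876 after rescaling, so at least as many genes passed. Ranges did not overlap for 1 of the 9 on the higher side, Fundc1 (6.94% of all genes), and 1 on the lower side, Pink1 (3.81%), as deposited, and for 1 on the lower side, Mfn1 (6.35%), after rescaling. Fundc1 stood 0.19 higher and Pink1 0.28 lower than in lean samples as deposited, with adjusted p of 0.242 and 0.247. Mfn1 stood 0.26 lower after rescaling (adjusted p = 0.0844), and Pink1 0.35 lower (adjusted p = 0.164).

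**Figure D1:**
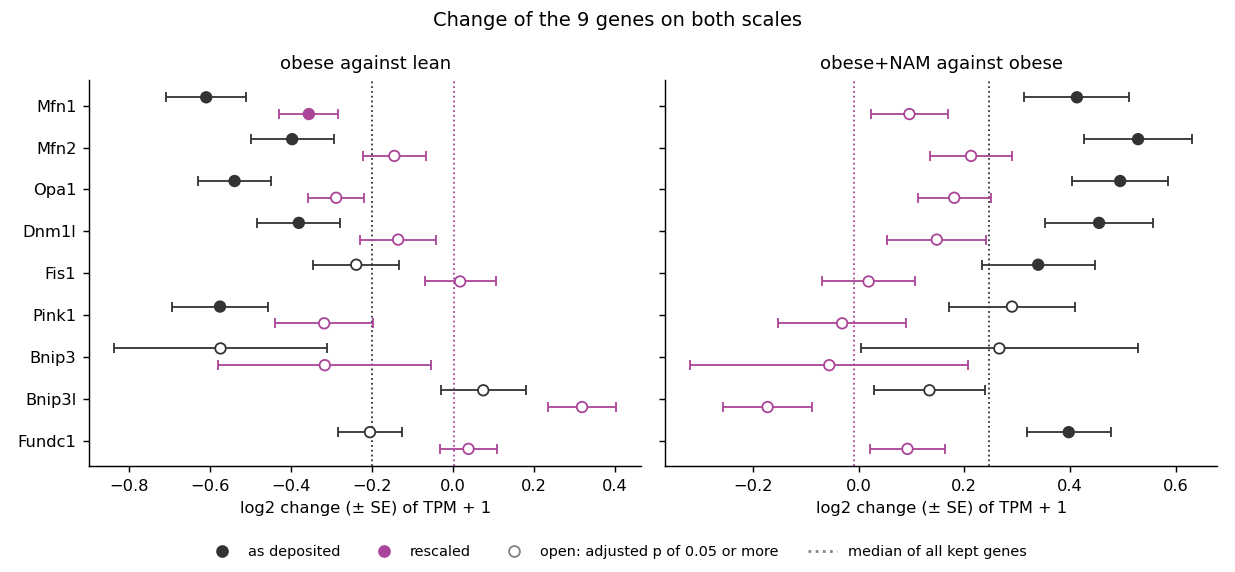
Log2 change of the 9 genes with its standard error, for obese against lean and NAM-treated against obese samples, on TPM as deposited (black) and after rescaling (purple), filled where called, with dotted lines at the median of all genes tested. Mfn1 has the lowest value for obese against lean on both scales (-0.61 and -0.36), and on the rescaled scale the points for NAM-treated against obese lie between -0.17 and 0.21.

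Mfn1 encodes mitofusin 1, an outer membrane GTPase that tethers neighbouring mitochondria. Its level was 60.9, 52.2, 55.8 and 63.5 TPM in lean replicates 1 to 4. In obese replicates 1 to 4 it was 33.6, 39.7, 37.2 and 40.4 TPM, and in NAM-treated replicates 1 to 4 it was 56.9, 43.9, 48.4 and 53.6 TPM. Every obese sample was below all lean and all NAM-treated samples, and the NAM-treated range reached into the lean range. Mfn1 fell by 0.61 in obese against lean samples (SE 0.0993, adjusted p = 0.00321) and rose by 0.41 with NAM (adjusted p = 0.0104). After rescaling the lean samples lay between 50.6 and 60.8 TPM, the obese between 39.9 and 46.2 and the NAM-treated between 43.1 and 48.6. On that scale both obese groups lay below the lean range, and they overlapped each other. The fall in obese samples was then 0.36 (SE 0.0727, adjusted p = 0.0392), and the NAM-treated samples were 0.10 higher than the obese (adjusted p = 0.563). The rescaled call of Mfn1 held only without NAM-treated replicate 3 (adjusted p = 0.0483) when 1 sample was left out, and ended for each of the other 11, with changes of -0.40 to -0.31 and adjusted p up to 0.105. It also ended without the filter on low values (adjusted p = 0.0590), without trend and robust in eBayes (0.0620) and in a fit to the 8 samples of both groups (0.101). As deposited the call held with each of the 12 samples left out.

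Mfn2 encodes mitofusin 2, which also fuses outer membranes and ties mitochondria to the endoplasmic or sarcoplasmic reticulum. Lean replicates 1 to 4 had 49.6, 40.3, 41.6 and 40.6 TPM. Obese replicates 1 to 4 had 34.2, 36.6, 29.4 and 29.7 TPM, and NAM-treated replicates 1 to 4 had 51.6, 41.1, 47.7 and 48.4 TPM. The obese samples lay below both other groups, and NAM-treated samples 1, 3 and 4 lay above lean samples 2 to 4. The change in obese samples was -0.40 (SE 0.103, adjusted p = 0.0206) and that with NAM 0.53 (adjusted p = 0.00447). The fall lost its call when lean replicate 1 (adjusted p = 0.0623), obese replicate 3 (0.0607) or obese replicate 4 (0.0594) was left out. After rescaling it was -0.14 (adjusted p = 0.393), with obese samples at 33.5 to 40.7 TPM and lean samples at 38.8 to 45.4 TPM. NAM-treated samples, at 41.3 to 44.1 TPM, were then all above the obese, by 0.21 (adjusted p = 0.210).

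Opa1 encodes the inner membrane fusion GTPase, which also keeps the cristae junctions narrow. In lean samples 1 to 4 Opa1 had 40.9, 34.1, 41.0 and 37.6 TPM. In obese samples 1 to 4 it had 25.2, 29.3, 26.0 and 24.0 TPM, and NAM-treated replicates 1 to 4 had 41.0, 34.5, 35.9 and 37.4 TPM. The obese samples lay apart from both other groups, whose ranges covered nearly the same values. Opa1 fell by 0.54 in obese samples (SE 0.0905, adjusted p = 0.00357) and rose by 0.50 with NAM (adjusted p = 0.00411), and both calls held with each sample left out. On the rescaled scale the obese samples, at 27.4 to 31.6 TPM, were still below every lean (33.1 to 39.3) and every NAM-treated sample (32.0 to 35.0). The rescaled changes were -0.29 (adjusted p = 0.0634) and 0.18 (adjusted p = 0.228), neither of which was called.

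RefSeq promoter windows (GRCr8, the 250 bases before each listed start) were available for 6 of the 9 genes, namely Mfn1, Opa1, Dnm1l, Fis1, Pink1 and Bnip3. They were searched on both strands for a GC box (GGGCGG), an E-box (CACGTG), the hypoxia response core (ACGTG, which lies inside every E-box), the binding letters of estrogen-related receptors (AAGGTCA) and a FOXO site (GTAAACA). Of all 33469 windows, 30.5% held the GC box, 5.59% the E-box, 16.6% the hypoxia response core, 3.99% the receptor letters and 3.21% the FOXO site. The stretches of Mfn1 and Opa1, the genes with the lowest adjusted p among the 9 in obese against lean samples, are shown here with the GC box in capitals as it reads on the other strand (CCGCCC), and in Opa1 also the hypoxia response core as it reads there (CACGT).
Mfn1, chr2:117241668-117241757, plus strand: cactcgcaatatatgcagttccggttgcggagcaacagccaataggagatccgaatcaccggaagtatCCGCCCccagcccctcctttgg
Opa1, chr11:84689971-84690060, minus strand: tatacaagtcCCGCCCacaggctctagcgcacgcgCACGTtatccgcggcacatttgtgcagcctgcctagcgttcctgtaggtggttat
The GC box of Mfn1 lies 22 to 17 bases before the start, and that of Opa1 shown here 150 to 145 bases before it. Fis1, Pink1 and Bnip3 also held the GC box, so that of the 6 genes only Dnm1l lacked it. The GC box is common among all windows, and a match is a run of letters, not a measured binding site.

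**Figure D2:**
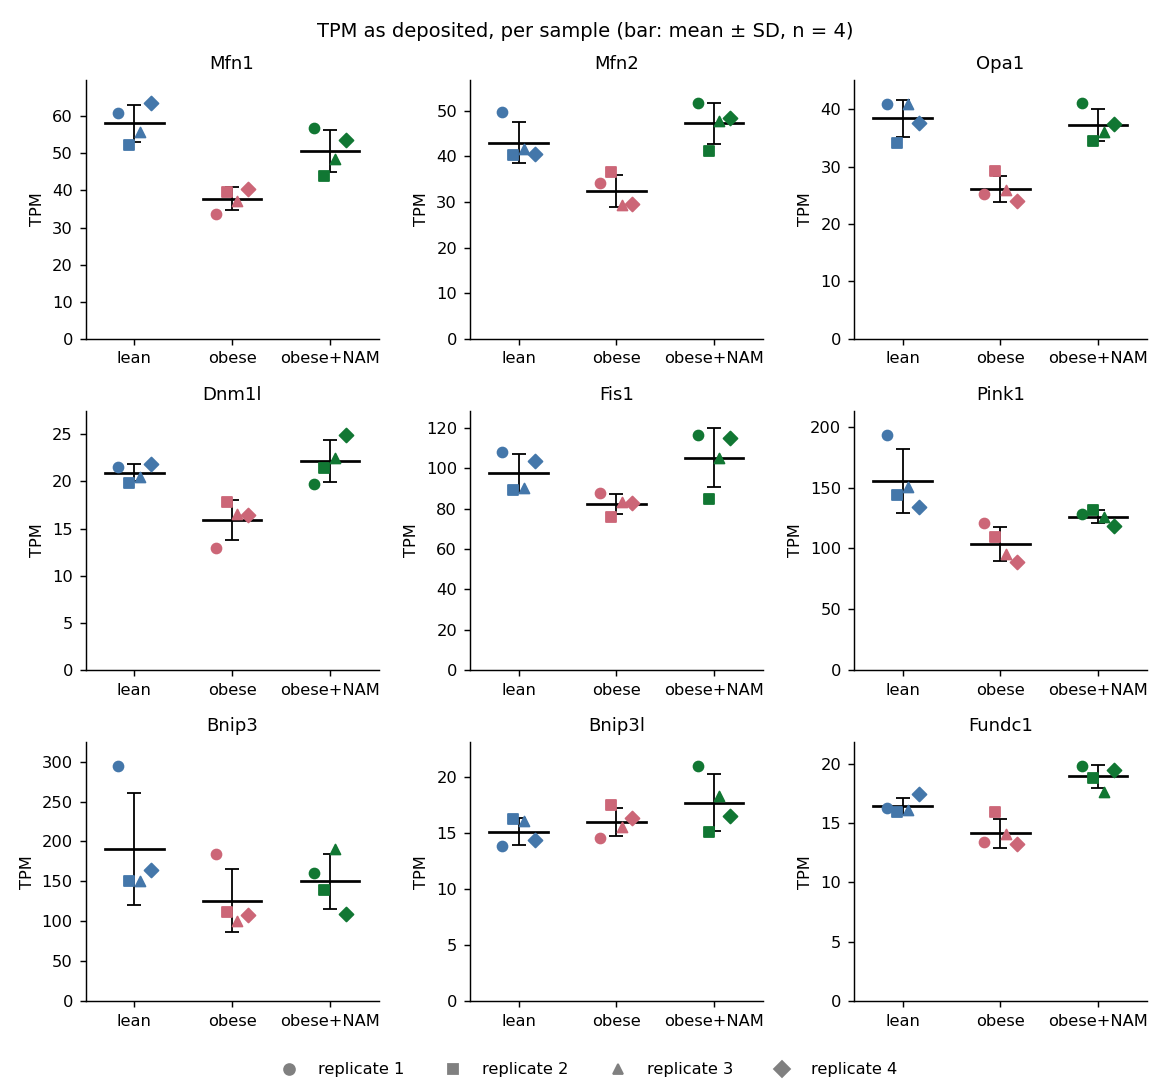
TPM as deposited of the 9 genes in every sample, by group, each mark 1 sample and each bar the mean ± SD of 4. For Mfn1, Mfn2 and Opa1 the obese dots lie below both other groups, and for Bnip3 replicate 1 stands apart in lean (295 TPM) and obese (185 TPM) samples.

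Dnm1l encodes DRP1, the GTPase that constricts mitochondria. The lean samples had 21.5, 19.8, 20.5 and 21.8 TPM in replicates 1 to 4. The obese samples had 12.9, 17.8, 16.5 and 16.4 TPM, and NAM-treated replicates 1 to 4 had 19.7, 21.5, 22.4 and 25.0 TPM. All obese samples were below both other groups, with replicate 1 lowest. Dnm1l fell by 0.38 in obese samples (SE 0.102, adjusted p = 0.0246) and rose by 0.46 with NAM (adjusted p = 0.00798). The fall lost its call without lean replicate 1 (adjusted p = 0.0633), lean replicate 4 (0.0585) or obese replicate 1 (0.0592). After rescaling the changes were -0.13 (adjusted p = 0.523) and 0.15 (adjusted p = 0.485), and obese replicate 1, at 15.4 TPM, lay apart from the other obese samples at 18.8 to 19.2 TPM. The Dnm1l window held the FOXO site, 110 to 104 bases before its start, and none of the other letters searched.

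Fis1 encodes a small outer membrane protein that takes part in division and in the removal of mitochondria. Its lean values were 108, 89.0, 90.1 and 103 TPM in replicates 1 to 4. Its obese values were 87.8, 75.9, 83.3 and 82.6 TPM, and NAM-treated replicates 1 to 4 had 117, 84.6, 105 and 115 TPM. The highest obese sample was just below the lowest lean sample, and NAM-treated replicate 2 lay inside the obese range. The difference between obese and lean samples was -0.24 and was not called (adjusted p = 0.135). Fis1 rose by 0.34 with NAM (adjusted p = 0.0314). This call ended without obese replicate 2 (adjusted p = 0.0688), 3 (0.0587) or 4 (0.0605) and without NAM-treated replicate 1 (0.0939), 3 (0.0670) or 4 (0.0881), and without the filter on low values (0.0522). After rescaling the group means were 92.6 ± 7.19 TPM in the lean group, 94.0 ± 9.31 in the obese group and 95.1 ± 7.56 in the NAM-treated group (SD, n = 4), and both differences from the obese samples were 0.02 in size.

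Pink1 encodes the kinase that gathers on damaged mitochondria and phosphorylates ubiquitin and parkin. Lean hearts had 194, 144, 150 and 134 TPM in replicates 1 to 4. Obese hearts had 121, 110, 95.2 and 89.1 TPM, and NAM-treated replicates 1 to 4 had 129, 132, 126 and 119 TPM. The 3 groups stood in the order lean, NAM-treated, obese, with every NAM-treated sample below every lean sample, and NAM-treated replicate 4 just below obese replicate 1. Pink1 fell by 0.57 in obese samples (SE 0.119, adjusted p = 0.00767), a call that held with each sample left out. The difference with NAM was 0.29 (adjusted p = 0.0811), and it passed the threshold without lean replicate 1 (adjusted p = 0.0384) or obese replicate 1 (0.0490). After rescaling the obese samples were 0.32 lower than the lean (adjusted p = 0.208) and the NAM-treated samples 0.03 lower than the obese (adjusted p = 0.929), so that both obese groups, at 118 ± 18.4 and 115 ± 11.9 TPM, stood below the lean mean of 147 ± 21.0 TPM (SD, n = 4) with overlapping ranges.

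Bnip3 encodes an outer membrane receptor for mitophagy whose transcription is known to rise in hypoxia. Across lean replicates 1 to 4 it had 295, 151, 151 and 164 TPM. Across obese replicates 1 to 4 it had 185, 111, 100 and 108 TPM, and NAM-treated replicates 1 to 4 had 161, 140, 191 and 109 TPM. Replicate 1 stood far above the rest in both lean and obese samples, while in NAM-treated samples replicate 3 was highest and replicate 4 lowest. The spread was the widest of the 9 genes, with a coefficient of variation of 36.8% in lean samples, 31.3% in obese samples and 23.0% in those with NAM as deposited. The difference between obese and lean samples was -0.57 (SE 0.263, adjusted p = 0.151) and was not called. It was -0.34 without lean replicate 1 (adjusted p = 0.331) and -0.77 without obese replicate 1 (adjusted p = 0.0641). With NAM the difference was 0.27 (adjusted p = 0.466), and after rescaling it was -0.06 (adjusted p = 0.943).

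The E-box CACGTG was found in Bnip3 and Pink1 among the 6 genes with a window. Their stretches are shown with the E-box in capitals.
Pink1, chr5:155826030-155826120, minus strand: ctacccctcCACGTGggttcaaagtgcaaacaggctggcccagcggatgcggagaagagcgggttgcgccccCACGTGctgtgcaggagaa
Bnip3, chr1:203155002-203155092, minus strand: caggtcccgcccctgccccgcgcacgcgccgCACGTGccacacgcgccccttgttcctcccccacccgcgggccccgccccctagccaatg
The matches lie 161 to 156 and 98 to 93 bases before the start of Pink1, and 99 to 94 bases before that of Bnip3. The receptor letters were in none of the windows of the 6 genes, which says only that these letters do not occur there.

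Bnip3l encodes NIX, a receptor related to BNIP3 that clears mitochondria from maturing red blood cells. In lean samples 1 to 4 it had 13.8, 16.2, 16.0 and 14.3 TPM. In obese samples 1 to 4 it had 14.5, 17.5, 15.5 and 16.3 TPM, and NAM-treated replicates 1 to 4 had 21.0, 15.0, 18.3 and 16.5 TPM. The 3 groups overlapped, and Bnip3l was the 1 gene of the 9 whose obese mean was not below the lean mean. Its differences were 0.08 in obese against lean samples (adjusted p = 0.644) and 0.13 with NAM (adjusted p = 0.349). After rescaling every obese sample, at 17.2 to 18.9 TPM, was above every lean sample, at 12.6 to 15.7 TPM, by 0.32 (SE 0.0843, adjusted p = 0.0854). NAM-treated samples lay between 14.7 and 17.9 TPM on that scale, 0.17 lower than the obese (adjusted p = 0.349). The summed level of 7 erythroid markers (hemoglobin and other red cell genes, none called in either comparison as deposited) was 767 to 1729 TPM in the lean group, 1830 to 4430 in the obese group and 549 to 2582 in the NAM-treated group. In obese against lean samples as deposited, 4 had separate ranges on the higher side and 1 on the lower side (66 and 2444 of all 10526 genes). After rescaling 6 had separate ranges on the higher side (4.26% of all genes), and 0 were called. The part of these markers in the level of Bnip3l was not tested.

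Fundc1 encodes a receptor that binds LC3 when it is dephosphorylated in hypoxia. The lean levels were 16.2, 15.9, 16.1 and 17.4 TPM in replicates 1 to 4. The obese levels were 13.4, 15.9, 14.0 and 13.2 TPM, and NAM-treated replicates 1 to 4 had 19.8, 18.8, 17.6 and 19.5 TPM. The NAM-treated samples were above all others, and obese replicate 2 (15.899 TPM) lay just below the lowest lean sample (15.901 TPM). Obese samples differed from lean by -0.20, which was not called (adjusted p = 0.0911), and Fundc1 rose by 0.40 with NAM (adjusted p = 0.00512). After rescaling these differences were 0.04 (adjusted p = 0.845) and 0.09 (adjusted p = 0.568).

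**Figure D3:**
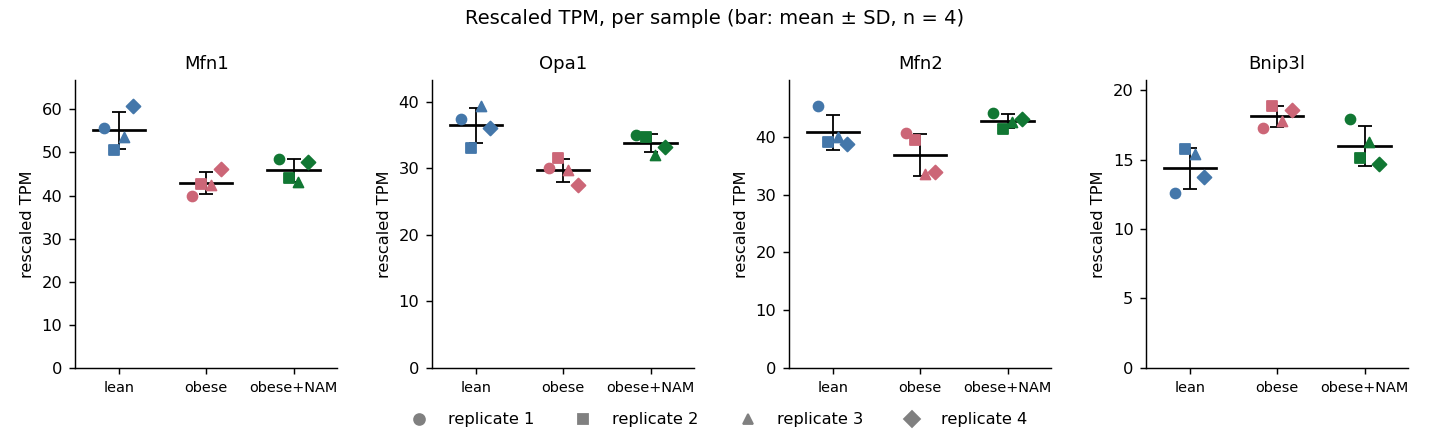
Rescaled TPM of Mfn1, Opa1, Mfn2 and Bnip3l in every sample, by group, each mark 1 sample and each bar the mean ± SD of 4. Lean Mfn1 dots (50.6 to 60.8 TPM) lie above both obese groups, and obese Bnip3l dots (17.2 to 18.9 TPM) lie above all lean dots.

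Ratios of 2 of the genes within a sample do not depend on how the sample is scaled, so 4 ratios were compared with exact 2-sided permutation tests, whose smallest p is 0.0286, adjusted over 12 tests. The ratio of Mfn1 to Mfn2 was 1.36 ± 0.147 in the lean group, 1.17 ± 0.173 in the obese group and 1.07 ± 0.0432 in the NAM-treated group (SD, n = 4). Every NAM-treated sample was below every lean sample, a log2 difference of -0.33 (exact p = 0.0286, adjusted p = 0.343), and the obese samples overlapped both. The ratio of Mfn2 to Opa1 was 1.12 ± 0.0921, 1.24 ± 0.0936 and 1.27 ± 0.0584 in the same order, and NAM-treated against lean samples gave an exact p of 0.0571 (adjusted p = 0.343).

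For division, the ratio of Dnm1l to Fis1 was 0.215 ± 0.0126 in the lean group, 0.195 ± 0.0361 in the obese group and 0.213 ± 0.0347 in the NAM-treated group, with overlapping ranges in all 3 comparisons. For the paired receptors, Bnip3 to Bnip3l was 12.9 ± 5.75, 8.05 ± 3.14 and 8.51 ± 1.71, and the log2 difference of obese from lean samples was -0.66 (exact p = 0.114, adjusted p = 0.343). Leaving out lean replicate 1 brought this difference to -0.38, and leaving out obese replicate 1 brought it to -0.90. No ratio was called in any of the 3 comparisons after adjustment. With 4 samples a group and 12 tests, 1 ratio with fully separate groups can reach an adjusted p of only 0.343, so the absence of calls does not show that the ratios were the same.

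**Figure D4:**
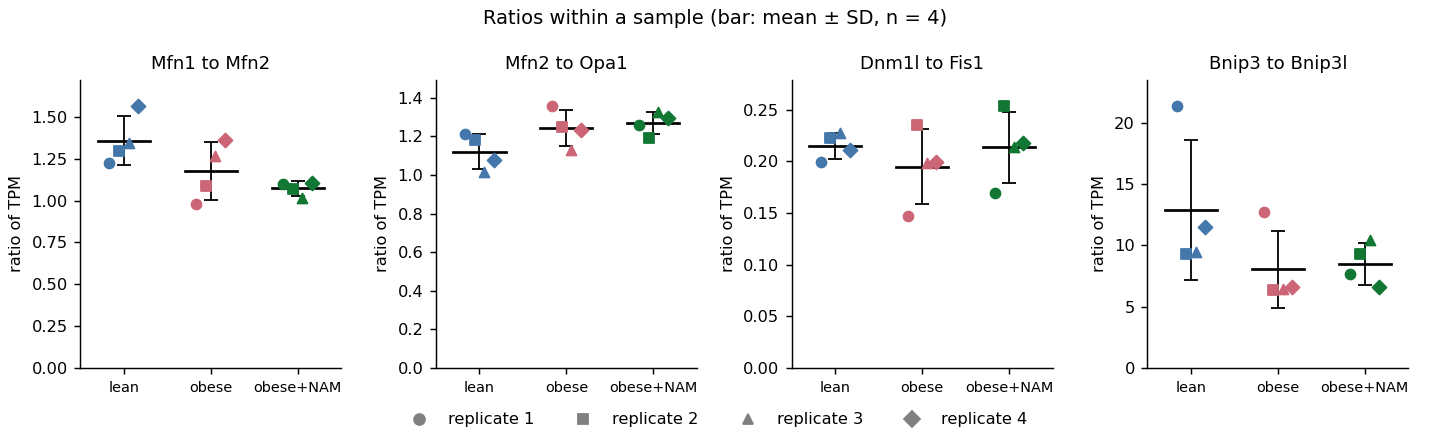
Ratio of TPM of 2 genes within each sample, by group, each mark 1 sample and each bar the mean ± SD of 4. NAM-treated Mfn1 to Mfn2 ratios lie between 1.01 and 1.11, below the lean range of 1.23 to 1.57.

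By level as deposited, the genes of mitophagy stood at both ends of the order. In lean samples Bnip3 (190 ± 70.0 TPM) and Pink1 (155 ± 26.5) were highest, followed by Fis1 (97.6 ± 9.54), Mfn1 (58.1 ± 5.07), Mfn2 (43.0 ± 4.46), Opa1 (38.4 ± 3.27), Dnm1l (20.9 ± 0.923), Fundc1 (16.4 ± 0.686) and Bnip3l (15.1 ± 1.21; SD, n = 4). The ranges of the neighbours Bnip3 and Pink1, Mfn2 and Opa1, and Fundc1 and Bnip3l overlapped. In obese samples Mfn1 (37.7 ± 3.09) overlapped Mfn2 (32.4 ± 3.53), and Bnip3l (15.9 ± 1.26) overlapped Dnm1l (15.9 ± 2.10), which was last but for Fundc1 (14.2 ± 1.21). In NAM-treated samples Mfn1 (50.7 ± 5.75) and Mfn2 (47.2 ± 4.43) overlapped, and Dnm1l (22.1 ± 2.20) was again above Bnip3l (17.7 ± 2.55) in mean.

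The genes most like each called gene were taken as those with the smallest root mean square difference in centred rescaled log2 values over the 12 samples, which share libraries and scaling. For Mfn1 these were Tmf1 (0.0598), Asap2 (0.0830) and Ank1 (0.0833), beside an SD of 0.170 for Mfn1 itself. For Mfn2 they were Mkln1 (0.0524), Mylk3 (0.0604) and Pccb (0.0632), beside an SD of 0.126, and for Opa1 they were Cacul1 (0.0585), Pdpr (0.0588) and Lrrc14b (0.0637), beside 0.139. For Dnm1l the nearest was Hspd1 (0.0784, beside 0.133), for Fis1 Eif3i (0.0694, beside 0.109), for Pink1 Plec (0.0826, beside 0.226) and for Fundc1 Sf3b3 (0.0538, beside 0.0898). Among the genes compared, none of these 7 had a neighbour at less than 0.05 on this measure.

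Other genes of the same machinery were taken from 12 lists, of which 101 genes were tested. In obese samples 45 of them were lower and 0 higher as deposited, where 16.5% of all genes were called lower, with a median of -0.33 beside -0.20 over all genes. With NAM, 47 were higher and 1 lower, where 28.8% of all genes were called higher and 0.466% lower, with a median of 0.30 beside 0.25. After rescaling 1 was lower in obese samples (median -0.09), beside 0.751% of all genes, and 1 higher with NAM (median 0.03), beside 0.713% in either direction. The rescaled counts of 1 in each comparison are those of Trak1 and Trak2. Without the mitochondrially encoded genes in the total, 1 was lower in obese samples, and 10 were higher and 1 lower with NAM, beside 0.342%, 2.58% and 0.495% of all genes. The counts given below for single lists are as deposited and are to be read against the 16.5% of all genes called lower in obese samples and the 28.8% called higher with NAM.

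Trak1 and Trak2 encode adaptors that link mitochondria to kinesin and dynein motors, and Rhot1 encodes Miro1, their mitochondrial anchor. Of 5 transport genes 4 were lower in obese samples and 4 higher with NAM as deposited. Trak1 stood at 22.1 ± 3.11 TPM in the lean group, 11.5 ± 1.07 in the obese group and 18.1 ± 1.01 in the NAM-treated group (SD, n = 4). It fell by 0.88 in obese samples (adjusted p = 0.000713), and after rescaling by 0.64 (adjusted p = 0.00337), a call that held with each sample left out. With NAM, Trak1 rose by 0.62 as deposited (adjusted p = 0.00305), and the rescaled difference was 0.31 (adjusted p = 0.0972). Trak2 rose by 0.70 with NAM (adjusted p = 0.00292) and by 0.39 after rescaling (adjusted p = 0.0485), where the call held without obese replicate 2 (adjusted p = 0.0400) and ended for each of the other 11 samples left out (up to 0.130), and with a pseudocount of 0.1 (0.0501), without the filter (0.0790), without trend and robust (0.0738) and in a fit to 8 samples (0.0955). A block on the replicate number also ended the rescaled call of Trak2. Rhot1 fell by 0.44 and rose by 0.53 as deposited, with rescaled differences of -0.19 and 0.22 that were not called.

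Near the fusion and fission genes, 2 of 8 fission adaptors and regulators were lower in obese samples and 4 higher with NAM. Mtfp1 fell by 0.50 and Mtfr1l by 0.44, and Mtfr1l rose by 0.42 with NAM. Of 6 fusion regulators 3 were lower and 3 higher, among them Mtch2, an outer membrane insertase, which fell by 0.40 and rose by 0.46. Of 8 genes of the cristae organising system 6 were lower and 5 higher. Samm50, of the outer membrane assembly machine, fell by 0.60 (adjusted p = 0.00309), and after rescaling its difference was -0.35 (adjusted p = 0.0502). Immt, the core of the cristae junction complex, fell by 0.48 and rose by 0.54. Of 10 genes of OPA1 processing and inner membrane proteolysis 5 were lower and 2 higher, with falls of 0.47 for the matrix protease gene Lonp1 and 0.40 for the paraplegin gene Spg7.

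In the PINK1-parkin list 1 of 7 was lower in obese samples, Park7 at -0.40 (adjusted p = 0.0168), and 4 were higher with NAM, including the segregase gene Vcp at 0.49 (adjusted p = 0.00394). Of 7 other mitophagy genes 3 were lower in obese samples and 0 higher with NAM. Pptc7, a mitochondrial phosphatase that restrains BNIP3 and NIX, fell by 0.50 (adjusted p = 0.00983). Fkbp8, another LC3-binding receptor, was the 1 gene lower with NAM, at 3.91 ± 0.453 against 5.995 ± 1.35 TPM (-0.50, adjusted p = 0.0404). This call ended when lean replicate 2 or 3, obese replicate 1, 2 or 3, or any of the 4 NAM-treated samples was left out, with adjusted p up to 0.112, and without the filter (0.0698), and after rescaling the difference was -0.76 (adjusted p = 0.0567). Of 5 autophagy adaptors 2 were lower and 3 higher, with Optn falling by 0.49 (adjusted p = 0.00414). Of 15 genes of autophagy start and conjugation 3 were lower and 8 higher, and the start kinase gene Ulk1 fell by 0.60 and rose by 0.56. Of 5 LC3 and GABARAP genes 1 was lower and 1 higher. The parkin gene was not analysed here.

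Of 13 genes used as a gauge of mitochondrial content 11 were lower in obese samples and 11 higher with NAM as deposited. The citrate synthase gene Cs fell by 0.51 and rose by 0.60, and Hspa9, the matrix chaperone gene, fell by 0.56 and rose by 0.57. After rescaling Cs differed by -0.25 (adjusted p = 0.102) and 0.28 (adjusted p = 0.0972). Among 12 transcriptional regulators 4 were lower and 2 higher. Ppargc1a, the coactivator of mitochondrial biogenesis, fell by 0.66 (adjusted p = 0.00416) and rose by 0.56 (adjusted p = 0.00609), with rescaled differences of -0.43 (adjusted p = 0.0580) and 0.28 (adjusted p = 0.198).

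**Figure D5:**
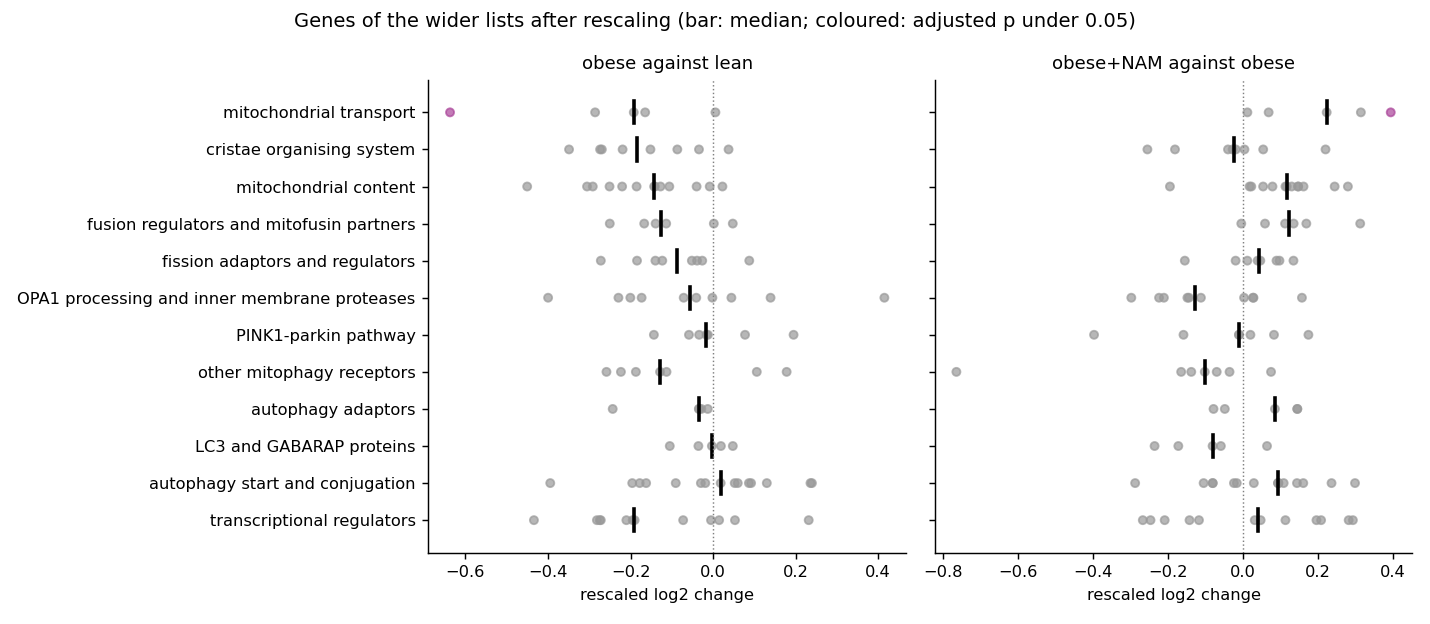
Rescaled log2 change of every tested gene of the 12 lists, for obese against lean (left) and NAM-treated against obese samples (right), each dot 1 gene, coloured where called, and each bar the list's median. Trak1 on the left (-0.64) and Trak2 on the right (0.39), both in the transport list, are the coloured dots, and Fkbp8 is the lowest dot on the right (-0.76).

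As deposited, markers of heart muscle cells moved in the same directions as most of these genes, and so did most genes tested. Over all genes, 16.5% were called lower in obese samples and 28.8% higher with NAM. All 8 cardiomyocyte markers were lower in obese samples as deposited, summing to 25110 to 28740 TPM in the lean group, 17726 to 19976 in the obese group and 21719 to 24890 in the NAM-treated group, and 7 of 8 were higher with NAM. After rescaling Myh6, the alpha myosin heavy chain gene, was the 1 marker of the 8 called in obese against lean (-1.52) and in NAM-treated against obese samples (0.71). Over all genes, 0.751% were then called lower in the first comparison and 0.713% in either direction in the second. The 7 smooth muscle and pericyte markers summed to 159 to 175 TPM in lean and 121 to 147 TPM in obese samples as deposited. With NAM these summed to 122 to 197 TPM. The 6 endothelial markers summed to 53.5 to 70.5, 48.5 to 63.0 and 58.7 to 76.1 TPM in the same order. The 7 fibroblast markers summed to 333 to 350, 279 to 541 and 282 to 364 TPM in the same order. All 7 log2 changes were above 0 in obese against lean and below 0 in NAM-treated against obese samples on both scales. After rescaling 5 had separate ranges on the higher side in the first comparison (4.26% of all genes) and 2 on the lower side in the second (4.30% of all genes). Pi16, a marker of adventitial fibroblasts, was the 1 called among them, higher in obese samples (0.51, adjusted p = 0.0464) and lower with NAM (-1.15, adjusted p = 0.00292) as deposited, and after rescaling only lower with NAM (-1.44, adjusted p = 0.0113; 0.76 in obese samples, adjusted p = 0.0580). The 5 atrial markers summed to 99.7 to 169 TPM in the lean group, 121 to 588 in the obese group and 176 to 1110 in the NAM-treated group. Of these, 0 were called in obese samples, and Kcnj3, an atrial potassium channel gene, was higher with NAM as deposited (0.92, adjusted p = 0.00305) but was not called after rescaling (0.63, adjusted p = 0.0590). The 7 macrophage markers summed to 27.5 to 38.8, 16.8 to 67.6 and 31.9 to 39.4 TPM in the lean, obese and NAM-treated groups. The part of these markers in the levels of the 9 genes was not tested.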

How the data were processed

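RNA of 12 rat cardiac muscle samples (4 per group) was sequenced from NEBNext Ultra II Directional libraries, per the labels' protocols. The authors deposited 1 table of TPM per gene against Rnor_6.0, and their processing notes name limma without a version. How reads were aligned and quantified is not given in any source used here. In the NAM-treated columns, also deposited by the authors as TPM, 498 of 17602 genes hold a text mark and were left out, none of them among the 9. Symbols were used as printed. The 9 genes, the lists and the tests were chosen with earlier results of these data known.

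The 10526 genes that reached 1 TPM in 4 or more of the 12 samples were fitted as log2(TPM + 1) with limma 3.58.1 in R 4.3.3 (3 group means, 9 residual degrees of freedom, trended and robust eBayes), 2-sided, with Benjamini-Hochberg adjustment over all fitted genes within a comparison and a threshold of 0.05. Rescaled values were divided by each sample's median of ratios to the geometric mean over fitted genes. The procedure was tested on simulated data. Ratios were compared with exact permutation tests. All 9 genes are named, and of each list up to 3 called genes with the smallest p per comparison and scale, not all of which are reported. Mtfr2, parkin, Calcoco2 and Timm23 were not analysed here, and 4 listed genes (Atg7, Inf2, Gdap1 and Pld6) fell under the filter. Promoter sequences are from RefSeq (GRCr8), matched by symbol. Alternatives were pseudocounts of 0.1 and 5, no filter, a mean of at least 5 TPM, TPM without mitochondrially encoded genes, upper quartile rescaling, eBayes without trend and robust, fits to 8 samples, a block on the replicate number, and leaving out single samples. Depth is unknown, and precision comes from the spread between samples.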

Additional observations from a re-analysis of the deposited data

Results flagged for a closer look

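Sample values were checked for 1 sample far from the other 3 of its group in 66 groups of 4, by the gap to the nearest sample over the whole range against Dixon's 95% limit. Chance passes this in about 1 of 20 groups. It was passed in 8, all by replicate 1 of the lean or obese samples, and the scales and the ratio share the same measurements. Bnip3 in lean samples was 295 TPM in replicate 1 against 151 to 164 in the others as deposited (0.904), and also stood apart after rescaling (0.899). Bnip3 in obese samples was 185 TPM in replicate 1 against 100 to 111 as deposited (0.869), and after rescaling 220 against 114 to 123 (0.916). The ratio of Bnip3 to Bnip3l in obese samples was 12.7 in replicate 1 against 6.36 to 6.63 (0.958). Mfn2 in lean samples was 49.6 TPM in replicate 1 against 40.3 to 41.6 as deposited (0.863), and after rescaling 45.4 against 38.8 to 39.9 (0.838). Rescaled Dnm1l in obese samples was 15.4 TPM in replicate 1, below 18.8 to 19.2 in the others (0.885).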

How the results depend on the processing

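As deposited, 5 of the 9 genes were called in obese against lean samples and 6 in NAM-treated against obese. Without mitochondrially encoded genes these counts were 0 and 1, and after median-of-ratios rescaling 1 and 0. Leaving out each sample gave 3 to 6 (3 without lean replicate 1) and 5 to 7. For the wider lists (45, 48 and 0 called in the 3 comparisons) the counts without mitochondrially encoded genes were 1, 11 and 5, after rescaling 1, 1 and 2, and with each sample left out 30 to 49, 32 to 53 and 0 to 1. NAM-treated against lean gave 1 wider list gene with a pseudocount of 5, a mean of at least 5 TPM, the replicate block or a fit to 8 samples. After rescaling, Mfn1 was the 1 gene called in obese samples; the count was 0 without the filter, 0 without trend and robust, 0 in a fit to 8 samples, 2 with a mean of at least 5 TPM (Opa1 added, adjusted p = 0.0478), and 0 to 1 with each sample left out. The 1 wider list gene of obese against lean became 2 with pseudocounts of 0.1 and 5, the replicate block and upper quartile rescaling, 5 with a mean of at least 5 TPM, and 1 to 3 with each sample left out. The 1 of NAM-treated against obese became 0 with a pseudocount of 0.1, without the filter, without trend and robust and in a fit to 8 samples, 3 with a mean of at least 5 TPM, and 0 to 2 with each sample left out. The 2 of NAM-treated against lean became 0 without the filter, 1 without trend and robust, 1 in a fit to 8 samples, 11 with a mean of at least 5 TPM, and 0 to 4 with each sample left out. Shares of all genes called are given above for rescaling. Without mitochondrially encoded genes they are given only for obese against lean and NAM-treated against obese. They were not computed for the other settings, so these counts cannot be read as particular to the 9 genes or the lists. Among changes as deposited, signs turned with values over 1 SE from 0 in both settings for Fundc1 in obese against lean (0.087 without mitochondrially encoded genes) and, after rescaling, for Bnip3l (-0.17), Mtfp1 (-0.16) and Spg7 (-0.14) in NAM-treated against obese. Signs also turned with a value within 1 SE of 0 in 1 of the settings or both. In obese against lean these were Fis1 (0.02 after rescaling, 0.06 without mitochondrially encoded genes), Fundc1 (0.04 after rescaling), Vcp (0.03 without those genes) and Fkbp8 (0.11 and 0.16, and without lean replicate 1 or obese replicate 4). In NAM-treated against obese they were Pink1 (-0.03), Bnip3 (-0.06), Optn (-0.08) and Pptc7 (-0.07) after rescaling, and Bnip3l (-0.06), Mtfp1 (-0.05) and Spg7 (-0.04) without mitochondrially encoded genes. Among rescaled changes, and in NAM-treated against lean, each sign that turned had such a value within 1 SE of 0. The cause of these differences was not tested. Alternatives for single wider list genes were added after the data had been seen. Deviations from the group means correlated between -0.05 and 0.07 across genes for samples with the same replicate number. Unlike numbers gave values of similar size, such as -0.09 for lean replicate 1 with obese replicate 2 as deposited. Obese replicate 1 with NAM-treated replicate 2 gave 0.08. These values show no pairing by number, but with 4 samples a group they cannot exclude it. The replicate block gave 5 and 7 of the 9 genes as deposited (Pink1 added with NAM, adjusted p = 0.0392). It ended the rescaled call of Trak2 (0.108), and for the ratios its smallest possible p was 0.125, above the threshold. Depth is unknown, so no counting error can be given, and 4 samples a group limit the precision.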
